A study of Arabidopsis thaliana with 4 samples.

Results

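The genes described here gave close signals on both ced1 arrays and signals far apart on the WT arrays. Their 135 probe sets were selected on measured values: all 4 signals at 150 or above, a factor of 2 or more between the WT signals, and ced1 signals of which the higher exceeded the lower by less than 25%, all on the linear signals as deposited. They are 135 of the 10563 probe sets whose 4 signals all reached 150, out of 22746 on the array. Another 9 probe sets met the same rule and were left out by name: 7 for plastid-encoded genes, and those of GIGANTEA (GI) and LHCB4.2. Of the 135, 60 carry the name of 1 gene in the probe table, 4 name several genes and 71 are unnamed here.

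Both groups were seedlings of the gl1-Col0 background, 16 days old, grown under continuous light and kept for 6 h on a plate with a 40% solution of polyethylene glycol (PEG), which withdraws water and imposes osmotic stress. The 2 ced1 arrays hold RNA of the mutant ced1, isolated for weak drought induction of NCED3, a synthesis gene of abscisic acid (ABA), and known as an allele of the cuticle gene BODYGUARD, and the 2 WT arrays hold RNA of the wild type. All seedlings carry gl1, which removes leaf hairs, and no untreated seedlings were analysed here. The arrays of a genotype are labelled biological replicates, and the labels do not say whether they came from separate plantings, so p-values measure the spread between these samples, which may be technical. In whole seedlings, fewer cells of a type and less RNA per cell cannot be told apart.

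As background, water loss makes a plant close its stomata, raise ABA and turn down growth and light harvesting. Chlorophyll is built in plastids by a chain of enzymes that ends with the reduction of protochlorophyllide and the attachment of a phytyl tail. Starch is made from ADP-glucose by day and is opened for breakdown by enzymes that add phosphate to it. Small secreted RALF peptides bind receptor kinases at the cell surface and restrain cell expansion. Genes of each of these processes were among those measured here.

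The WT arrays lay farther apart than the ced1 arrays. A factor of 2 or more separated the ced1 arrays for 17 of the 10563 probe sets at 150 or above, and the WT arrays for 175. Of those 175, 144 had ced1 signals within 25% of each other, and these are the 135 members with the 9 left out by name. The mirror rule, with ced1 arrays a factor of 2 or more apart and WT arrays within 25%, found 6 probe sets. Median factors over all 10563 were 1.08 between the ced1 arrays and 1.17 between the WT arrays, so the wider WT spread was not confined to the genes described here. Log2 signals over these probe sets correlated at r = 0.990 between the ced1 arrays and r = 0.967 between the WT arrays, and the WT value was 0.972 with the 144 probe sets taken out. WT array 1 had the lower correlations with the ced1 arrays, 0.837 and 0.832, against 0.868 and 0.867 for WT array 2.

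**Figure D1:**
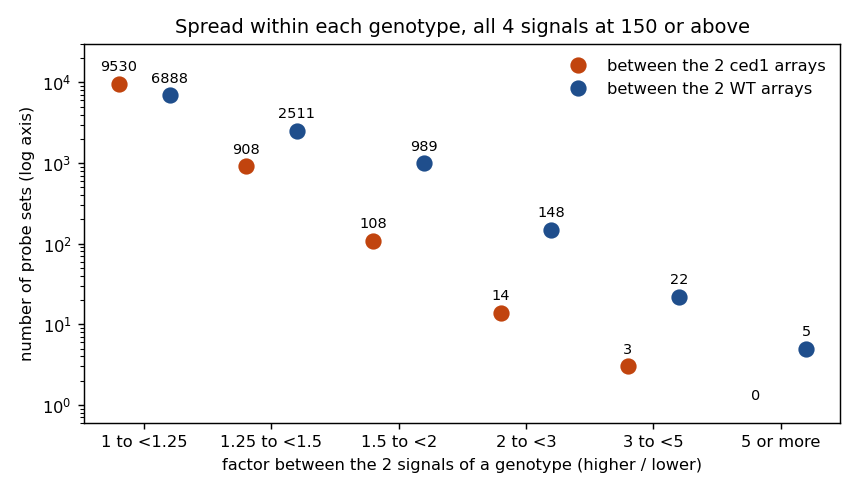
Number of probe sets (log axis) by the factor between the 2 signals of a genotype, for the 10563 probe sets with all 4 signals at 150 or above; red-brown points count pairs of ced1 signals and blue points pairs of WT signals. In every bin but the lowest the ced1 count is below the WT count, with 14 ced1 pairs against 148 WT pairs between factors of 2 and 3.

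Most of the genes were higher on WT array 2. There 90 of the 135 (66.7%) were the higher, beside 53.9% of the other probe sets at 150 or above, and 45 were higher on WT array 1. This split depends on scaling. Setting the medians of all probe sets equal multiplies WT array 1 by 1.125 and WT array 2 by 1.015. The rule then chose 146 probe sets, 97 of them among the 135, and 89 of the 146 were higher on WT array 1. With quantile normalization 39 of 114 were higher on WT array 1, and with equal medians over the probe sets at 150 or above, an alternative added after seeing the data, 51 of 132 were. The scalings change which probe sets reach a factor of 2, and not the order of the WT signals at those already chosen. The WT factor had a median of 2.33 and a highest value of 7.24 among genes higher on WT array 2, and a median of 2.18 and a highest value of 3.52 among those higher on WT array 1. All 9 probe sets left out by name were higher on WT array 2 as well, including GI with signals of 854.5 and 776.3 on the ced1 arrays, against 504.5 on WT array 1 and 1655 on WT array 2.

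The genes just at the edges of the rule show how sharp its limits are. At the WT factor, the unnamed probe set 247025_at, AT3G33530 and AILP1 stood inside at 2.0, 2.001 and 2.002, and AT4G29780 and 2 unnamed probe sets stood outside at 1.989, 1.996 and 1.998. At the ced1 factor, AT3G43270 stood inside at 1.247 and AT3G14280 outside at 1.257. At the lowest signal, AT5G66985 and RALFL31 stood inside at 151 and 151.5, and AT5G04160 and AT5G06190 outside at 149.1 and 148.1.

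The ced1 signals lay nearer WT array 2 for 110 of the 135 probe sets (81.5%), measured as the distance of each WT log2 signal from the mean of the ced1 log2 signals. Among the other 10419 probe sets at 150 or above, WT array 2 was the nearer for 5903 (56.7%). Under other scalings the shares were 82.9% of the chosen probe sets against 59.9% of the others with equal medians over all probe sets, 79.8% against 55.5% with quantile normalization, and 79.5% against 56.7% with equal medians over the probe sets at 150 or above. It was seen on both sides of the split, at 33 of the 45 genes higher on WT array 1 and 77 of the 90 higher on WT array 2. These shares are descriptions of 4 arrays, since a single array stands on each side of the WT difference and no test can be made of it.

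At many of the genes ced1 lay outside the WT range altogether, though less often than among all probe sets at 150 or above. The wide WT gap that the rule fixed leaves less room outside it. Both ced1 signals stood beyond WT array 2, on the side away from WT array 1, for 69 of the 135, against 44.1% of all probe sets at 150 or above. They stood beyond WT array 1 for 6 of the 135, against 31.2% of all. For 48 genes both ced1 signals fell between the WT signals, and for the remaining 12 they lay on either side of a WT signal. By direction, both ced1 signals were above both WT signals for 56 of the 135 (39.1% of all) and below both for 19 (36.1% of all). Among the other probe sets 9.29% had ced1 between the WT signals. The rule fixed a wide gap there, so nothing is read from that share, nor from how often ced1 lay outside the gap.

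**Figure D2:**
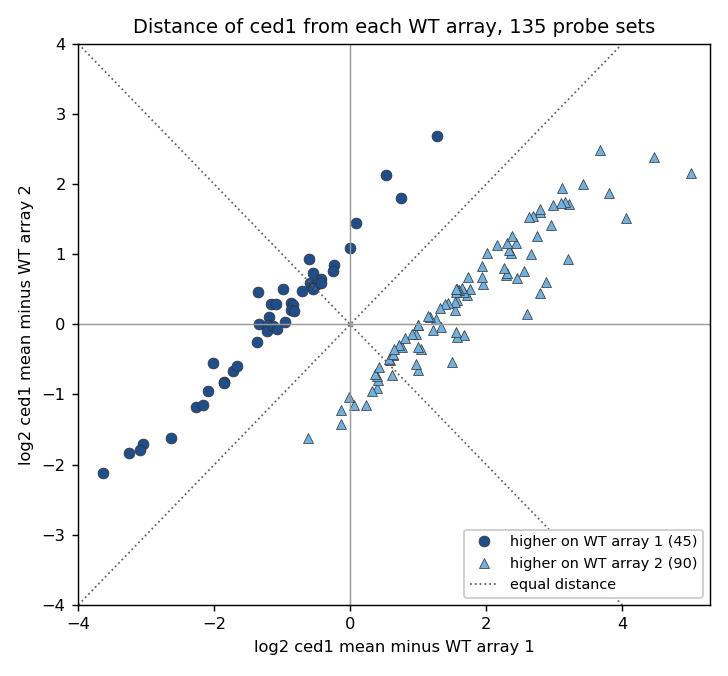
Each point is 1 of the 135 probe sets, with the log2 distance of the ced1 mean from WT array 1 on the x axis and from WT array 2 on the y axis; dark circles are higher on WT array 1, light triangles higher on WT array 2, and dotted lines mark equal distance. Points left and right of the dotted cross, 110 in all, have ced1 nearer WT array 2.

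The share of probe sets with ced1 nearer WT array 2 climbed with the size of the WT factor. It was 53.1% of 6888 probe sets with WT signals within 25% of each other, 61.8% of 2511 above that and under a factor of 1.5, 68.3% of 989 between 1.5 and 2, 75.7% of 148 between 2 and 3, and 86.4% of 22 between 3 and 5. The 5 probe sets above that, too few to carry a trend, all had WT array 2 nearer. Across the 10563 probe sets the log2 difference of WT array 2 over WT array 1 correlated with that of ced1 over the WT mean at r = 0.283, a correlation across probe sets that share the same arrays. Among the 135 it was 0.653, and the gap between the WT arrays was what chose them.

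**Figure D3:**
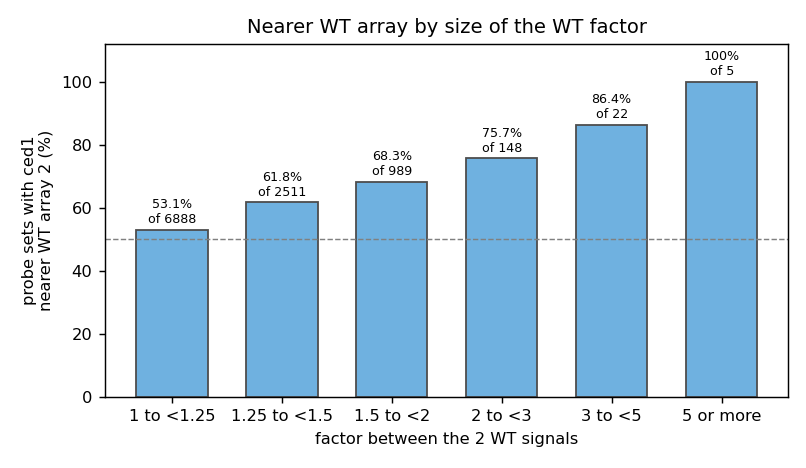
Share of probe sets (y axis, percent) whose ced1 mean lies nearer WT array 2, by the factor between the WT signals (x axis), over the 10563 probe sets at 150 or above; the dashed line is at 50%. Bars climb from 53.1% to 86.4% over the bins that hold 22 or more probe sets.

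The genotype comparison was fitted by limma on log2(signal + 16) over 13648 probe sets, of which 23.2% were higher in ced1 and 19.2% lower at a Benjamini-Hochberg adjusted p under 0.05. Of the 135 probe sets, all of them tested, 46 passed as higher in ced1, 14 passed as lower and 75 missed the threshold. The rule chose large WT gaps, which are part of the spread that the test uses, so these counts are set beside the shares for all probe sets and nothing is read from them. The same limit holds for the SE, adjusted p and call of each single member below, passed or missed. Those values are given as descriptions. The median SE of the log2 difference was 0.34 for the 135, against 0.18 for all tested. Their median log2 difference was 0.47, against 0.07 for all tested; it was 0.99 for the 90 higher on WT array 2 and -0.43 for the 45 higher on WT array 1.

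The named genes are described below in groups formed from general knowledge after their values were seen, so a count within a group is a description of its genes alone. The group for chlorophyll synthesis held 2 genes, both higher on WT array 2, as were 66.7% of all 135. PORB, the light-dependent protochlorophyllide oxidoreductase, had signals of 4900.9 and 4912.5 in ced1 seedlings, against 1867.9 on WT array 1 and 4000.5 on WT array 2. AT1G74470, the geranylgeranyl reductase that makes the phytyl tail of chlorophyll, had 11675.2 and 12638.5 in ced1 seedlings, against 3164.9 on WT array 1 and 7591.7 on WT array 2. Both ced1 signals lay above both WT signals for each of these genes. By limma with Benjamini-Hochberg adjustment over all probe sets, ced1 was higher for AT1G74470, at a log2 difference of 1.31 ± 0.35 (SE; adjusted p = 0.0222), and PORB at 0.84 ± 0.31 did not pass (adjusted p = 0.0657).

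PORB was the sole member among 13 named genes of a list for nuclear photosynthesis and pigments, which also holds LHCB4.2, left out by name. Of the 13, 11 were higher on WT array 2, beside 53.9% of the other probe sets at 150 or above. The median log2 difference (WT array 1 minus WT array 2) over all 13 was -0.34, against -0.04 over all probe sets at 150 or above. With equal medians 11 were again higher on WT array 2. In ced1, 11 of the 13 passed as higher and 0 as lower, beside 23.2% higher and 19.2% lower among all probe sets tested. The median log2 difference of the 13 was 0.84, against 0.07 for all tested, and PORB and LHCB4.1 missed the threshold. With equal medians over all probe sets 9 passed as higher, as did 2213 of all 13648 probe sets tested. The genes CHLI2 and PSAN, for a subunit of magnesium chelatase and a small subunit of photosystem I, were the pair slightly higher on WT array 1, by 0.12 and 0.05. CHLM, another chlorophyll synthesis gene, differed little between the WT arrays, with 4736.4 and 5178 in ced1 seedlings, against 2540.2 and 2833.5 on WT arrays 1 and 2. The leaf markers are genes of this same list and give no separate reading: the summed signal of RCA, LHCB4.1 and PRK, the 3 of 10 leaf markers with a name, was 55070.9 and 57564 on the ced1 arrays, against 32794.4 on WT array 1 and 41322 on WT array 2. Of 12 root markers 3 were named, and their sum, nearly all from PYK10, was 6535.7 and 6064.4 on the ced1 arrays, against 9787.6 and 9693.5 on the WT arrays. The part of tissue share in these results was not tested.

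Plastid-related genes of nuclear origin split by array. AT1G01320, of the REC family whose members set how much of a cell its chloroplasts fill, had 520 and 605 in ced1 seedlings, against 188.9 on WT array 1 and 632.8 on WT array 2. AT2G34620, of the mTERF family that acts on organelle transcripts, had 1267.5 and 1370.5 in ced1 seedlings, against 195.3 and 548.4 on WT arrays 1 and 2. CHL, the chloroplastic lipocalin that protects thylakoid lipids under stress, went the other way on the WT arrays, with 1075.4 and 992.1 in ced1 seedlings, against 2311.2 on WT array 1 and 843.1 on WT array 2. For AT1G01320 and CHL the ced1 signals fell between the WT signals, close to WT array 2 in both cases, and neither passed the test.

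Starch and sugar genes lay on both sides. PWD (AT5G26570), the phosphoglucan water dikinase that prepares starch for breakdown, had 984.6 and 996.5 in ced1 seedlings, against 2186.8 on WT array 1 and 1011 on WT array 2. APL4, a large subunit of the ADP-glucose pyrophosphorylase of starch synthesis, ran opposite, with 358.8 and 366.8 in ced1 seedlings, against 156.2 on WT array 1 and 382.3 on WT array 2. On WT array 1, then, the starch breakdown gene was high and the starch synthesis gene low, while WT array 2 nearly matched ced1 for both. SWEET2, a sugar carrier of the vacuole membrane, sat midway, with 423.1 and 417.7 in ced1 seedlings, against 638.4 and 220 on WT arrays 1 and 2. AT1G78020, an FLZ zinc-finger gene, had 739.1 and 606 in ced1 seedlings, against 632.2 and 246.3 on WT arrays 1 and 2, and was one of the genes nearer WT array 1.

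None of these 4 starch and sugar genes passed the limma test between the genotypes. The WT gap that chose them widens the spread in that test, so nothing is read from the misses. In the list of 21 named genes for sugar starvation, starch and trehalose, 13 were tested. The ced1 level passed as higher for 4 and as lower for 1, and 8 missed the threshold, beside 23.2% higher and 19.2% lower among all probe sets. Of the 11 of them at 150 or above on all arrays, 7 were higher on WT array 1, beside 46.1% of the other probe sets at 150 or above. A WT factor of 2 or more was held by 3 of the 11, which are PWD, SWEET2 and APL4, beside 1.66% of all at 150 or above. DPE1, the plastid enzyme that recycles maltotriose in starch breakdown, was higher on WT array 1 too, with 558.6 and 620 in ced1 seedlings, against 843.4 and 500.5 on WT arrays 1 and 2. A second gene of the symbol PWD in the gene table, AT4G24450, had 165.7 and 191.9 in ced1 seedlings, against 248.1 and 289.7 on WT arrays 1 and 2, and did not share the WT gap. Nor did APL3, another large subunit gene of the list, with 559.3 and 368.4 in ced1 seedlings, against 459.4 and 528.6 on WT arrays 1 and 2.

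Of 5 signalling genes, 4 were higher on WT array 1, beside 33.3% of all 135. RALFL32, a RALF-like peptide gene, had 671.9 and 738.1 in ced1 seedlings, against 3145.3 on WT array 1 and 1566.4 on WT array 2. Its relative RALFL31 had 240.3 and 214.8 in ced1 seedlings, against 305.2 and 151.5 on WT arrays 1 and 2. The RALF genes thus shared their order on the WT arrays, while ced1 lay below both WT signals for RALFL32 and between them for RALFL31. The WT factors of RALFL32 and RALFL31, 2.008 and 2.015, lay close to the limit of 2. RR16, a type-A response regulator that damps cytokinin signalling, had 392.5 and 416.4 in ced1 seedlings, against 590.7 and 244 on WT arrays 1 and 2. B120, a lectin-type receptor kinase gene, had 169.8 and 187 in ced1 seedlings, against 412.1 and 179.3 on WT arrays 1 and 2, so that WT array 2 stood at the ced1 level. AT2G41090, a calmodulin-like calcium sensor gene, was the exception, with 2784.1 and 2689.4 in ced1 seedlings, against 345 on WT array 1 and 840.4 on WT array 2.

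The 5 genes of defence metabolism and detoxification had ced1 nearer WT array 2, as had 81.5% of all 135. AT3G13610, the feruloyl-CoA hydroxylase of scopoletin synthesis (F6'H1), had 227.4 and 189.8 in ced1 seedlings, against 529 on WT array 1 and 207.4 on WT array 2. AER, a reductase that detoxifies reactive carbonyls from oxidised lipids, had 774 and 682.1 in ced1 seedlings, against 1875.4 and 861.2 on WT arrays 1 and 2. AT5G52810, known as SARD4 and needed for pipecolic acid synthesis in defence, had 192.3 and 225.5 in ced1 seedlings, against 756.1 and 366.8 on WT arrays 1 and 2. These 3 were high on WT array 1 alone or chiefly there. The glycosyltransferase gene UGT88A1 and the cytochrome P450 gene CYP71B26 were instead lowest on WT array 1: UGT88A1 had 2971.6 and 3018 in ced1 seedlings, against 669.1 and 1369 on WT arrays 1 and 2. CYP71B26 had 1622.6 and 1492.7 in ced1 seedlings, against 514.2 and 1109.3, and both passed as higher in ced1, at 1.63 ± 0.30 and 1.03 ± 0.32 (SE; adjusted p = 0.00514 and 0.037 by limma).

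Of 5 genes for cell wall and secreted proteins, 4 were higher on WT array 2, as were 66.7% of all 135. AT5G48490, related to the lipid-transfer protein DIR1, had the largest WT factor of any named gene (4.25), with 5016.5 and 5247.1 in ced1 seedlings, against 231.1 on WT array 1 and 981.2 on WT array 2. AT4G16980, of the arabinogalactan-protein family, had 5711.2 and 6363 in ced1 seedlings, against 701.1 and 1813 on WT arrays 1 and 2, and AT3G16670, a small secreted protein gene, had 2905.6 and 2954.8 against 595.7 and 1806.2. In all 3 the ced1 level was above WT array 2 and farther still from WT array 1. HRGP1, a hydroxyproline-rich wall glycoprotein measured by a probe set whose suffix (x) marks possible cross-hybridisation, had 315.4 and 275.2 in ced1 seedlings, against 192 and 485.7 on WT arrays 1 and 2. AT3G43270, a pectin methylesterase gene, was the wall gene high on WT array 1, with 432.6 and 346.9 in ced1 seedlings, against 3208 and 1258.8 on WT arrays 1 and 2.

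Of 4 protease and peptidase genes, 3 were higher on WT array 2, beside 66.7% of all 135. AT5G45650, a subtilase gene, had 888.7 and 755.2 in ced1 seedlings, against 165.9 and 494.4 on WT arrays 1 and 2, and AT1G66180, an aspartyl protease gene, had 1833.9 and 1837.8 against 351.3 and 766.7. BETA-VPE, a vacuolar processing protease, had 787.7 and 699 in ced1 seedlings, against 567.3 and 1231 on WT arrays 1 and 2, and lay nearer WT array 1. THIC, which makes the pyrimidine part of thiamine, had 3288.8 and 3220.8 in ced1 seedlings, against 5329.9 and 2334 on WT arrays 1 and 2. AT2G29670, a near neighbour of THIC with 4 genes between them in the order of the TAIR10.1 gene table, ran opposite to it, with 3347.5 and 3876 in ced1 seedlings, against 2058.3 and 4126.6 on WT arrays 1 and 2.

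For the 3 genes of vesicle traffic and the cytoskeleton ced1 lay nearer WT array 1, as it did for 18.5% of the 135 and 43.3% of the other probe sets at 150 or above. AT2G43160, an epsin gene of vesicle formation, had 198.6 and 235 in ced1 seedlings, against 164.2 on WT array 1 and 407.2 on WT array 2. AT2G21300, a kinesin motor gene, had 247.3 and 283.7 in ced1 seedlings, against 199.3 and 460.8 on WT arrays 1 and 2. AT2G21630, a Sec23/Sec24-type coat protein gene of export from the endoplasmic reticulum, had 194.7 and 234.2 in ced1 seedlings, against 327.4 and 659.4 on WT arrays 1 and 2. WT array 2 was the high array for all of them, as it was for 66.7% of all 135. AT3G57600, a DREB-type transcription factor gene, and AT1G20670, a bromodomain gene, were also higher on WT array 2. AT1G20670 lay nearer WT array 1, with 325 and 297 in ced1 seedlings, against 314.3 and 636.6 on WT arrays 1 and 2. Among genes of transport, AT1G68570, known as NPF3.1 and a carrier of gibberellin and nitrate, had 910.8 and 796.5 in ced1 seedlings, against 1800.3 and 895.3 on WT arrays 1 and 2. SAMTL, which resembles carriers of S-adenosylmethionine, had 879.5 and 1044.9 in ced1 seedlings, against 711.3 and 1468.1. Here again the carriers took opposite orders on the WT arrays. The groups above, with MAP1C, a methionine aminopeptidase gene higher on WT array 1, hold 36 of the 60 named genes, and the other 24 have no role given here.

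**Figure D4:**
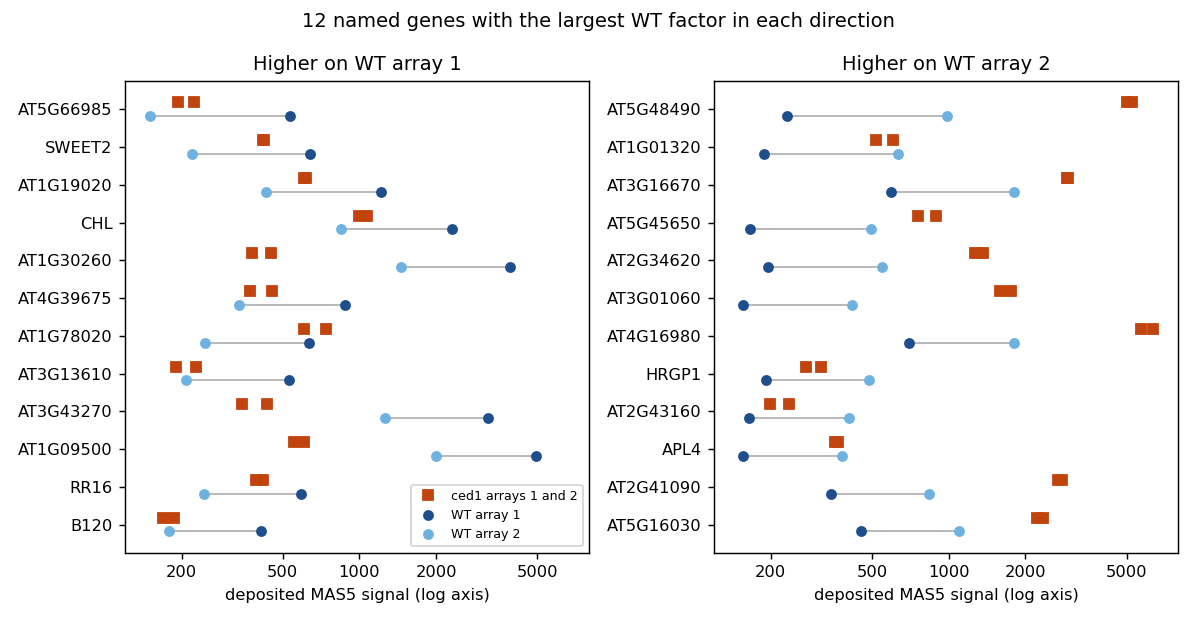
Deposited MAS5 signals (log axis) of the 12 named genes with the largest WT factor in each direction; red-brown squares are the ced1 arrays, and a grey line joins WT array 1 (dark) and WT array 2 (light). The ced1 squares pair closely for every gene by the rule, and for AT1G30260, AT3G43270 and AT1G09500 they lie left of both WT points, while for AT5G48490, AT3G01060, AT4G16980 and others at the right they lie beyond WT array 2.

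Other named genes with a wide gap have no role given here. AT5G16030 had 2231.1 and 2344.6 in ced1 seedlings, against 452.6 and 1096.2 on WT arrays 1 and 2, and AT5G44580 had 2986.1 and 3086.4 against 440.2 and 996.9. AILP1, of a family named for its response to aluminium, had 6565.1 and 7308.1 in ced1 seedlings, against 1710.7 and 3424 on WT arrays 1 and 2, at the very edge of the rule. All 3 lay above the WT range in ced1 and were lowest on WT array 1.

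Several unnamed probe sets had wider gaps than any named gene. The largest WT factor, 7.24, belonged to 258239_at, with 12412.9 and 11955.7 in ced1 seedlings, against 377 on WT array 1 and 2730.4 on WT array 2, and 251519_at followed at 5.85. Both were far above the WT range in ced1. On the other side, 254828_at had 759.1 and 851.1 in ced1 seedlings, against 556.9 and 183.9 on WT arrays 1 and 2, and 249606_at had 206.4 and 175 in ced1 seedlings, against 2370.8 and 826.9 on WT arrays 1 and 2. Of the 71 unnamed probe sets, 52 were higher on WT array 2, and ced1 lay nearer WT array 2 for 62.

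Named genes with the largest differences among those that passed had ced1 well outside the WT range, and each differed by a different amount from each WT array. Both traits follow from the choice of these genes, by a large difference and by a WT factor of 2 or more. The largest increases were AT5G48490 at 3.37 ± 0.55 (SE), AT3G01060 at 2.63 ± 0.38, AT4G16980 at 2.40 ± 0.38, AT2G41090 at 2.31 ± 0.36 and AT5G44580 at 2.17 ± 0.33, with adjusted p between 0.00208 and 0.00323 by limma. Without WT array 1 these were 2.37, 1.96, 1.73, 1.68 and 1.59, and without WT array 2 they were 4.38, 3.29, 3.08, 2.93 and 2.74. No test is read from these fits, since their spread comes from the ced1 arrays, which the rule chose to lie close. AT3G01060 had 1589.1 and 1761.5 in ced1 seedlings, against 156.2 and 417.3 on WT arrays 1 and 2.

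The largest decreases were AT1G30260 at -2.49 ± 0.40, AT1G09500 at -2.41 ± 0.37, AT3G43270 at -2.33 ± 0.39, RALFL32 at -1.63 ± 0.30 and AT5G52810 at -1.28 ± 0.32, with adjusted p between 0.00255 and 0.0163 by limma. Without WT array 1 they were -1.79, -1.77, -1.66, -1.14 and -0.77, and without WT array 2 they were -3.20, -3.07, -3.00, -2.13 and -1.78. AT1G09500, a reductase gene related to cinnamyl alcohol dehydrogenases, had 603.6 and 553 in ced1 seedlings, against 4951.6 and 2001.8 on WT arrays 1 and 2. AT1G30260 had 378.1 and 448.8 in ced1 seedlings, against 3918 and 1462.6 on WT arrays 1 and 2. The direction was the same against either WT array in these 5 genes, which is no separate check, since they were picked for their large differences. That the decrease was smaller against WT array 2 follows from their higher signal on WT array 1.

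The gene with the largest gap on WT array 1 is an example of those whose genotype difference has no settled direction. AT5G66985, of no stated role here, had 224.1 and 193.9 in ced1 seedlings, against 531.9 on WT array 1 and 151 on WT array 2, and differed by -0.43 ± 0.49 (adjusted p = 0.506 by limma). Against WT array 1 its ced1 mean was lower by a log2 difference of -1.35, and against WT array 2 it was higher by 0.47. Of the 60 named genes, 25 had both ced1 signals between the WT signals in this way, among them AT1G19020 with 619.5 and 603.6 in ced1 seedlings, against 1212.6 and 430 on WT arrays 1 and 2. AT4G39675 was of the same kind, with 452.2 and 373.1 in ced1 seedlings, against 877 and 335.6.

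No gene of the list for ABA response and dehydration met the rule, which 1.28% of all probe sets at 150 or above did after the exclusions by name, and 8 of the 10 lists, the ABA list among them, held no member. These 8 lists had at most 13 named genes each at 150 or above, too few at that share to read anything from an empty list. The 15 genes of that list were tested, and ced1 was lower at 11 of them and higher at 1, with 3 short of the threshold. Among all probe sets tested 19.2% were lower and 23.2% higher. LEP and LCR entered the list by a name match and are not ABA or dehydration genes. Both are among the 3 short of the threshold. Its median log2 difference was -1.45, against 0.07 over all probe sets tested. Of its 13 genes at 150 or above on all arrays, 0 had a WT factor of 2 or more, against 1.66% of all at 150 or above. Of these, 7 were higher on WT array 1 and 6 on WT array 2, and with equal medians the split was 9 to 4. The list's WT log2 differences ranged from -0.44, at LCR, to 0.95, and LEP and LCR were both among the 6 higher on WT array 2. For jasmonate and wounding, the defensin genes PDF1.2 and PDF1.2b were higher on WT array 1 with WT factors above 2 and did not meet the rule, since their ced1 signals also lay apart: PDF1.2 had 3359.7 and 1048 in ced1 seedlings, against 520.3 and 221.8 on WT arrays 1 and 2. The clock and light list had 3 named genes and no member, GI having been left out by name.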

How the data were processed

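The deposited intensity values are 1 linear signal per probe set and array. The tool named is MAS5, per the submitters' processing notes, with no version or settings. The trimmed means of the 4 arrays lay between 494.4 and 495.7, while array medians were 186.4 and 187.5 (ced1) and 156.3 and 173.3 (WT). Detection calls were not used, and the number of arrays limits the precision.

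The rule was applied to the linear signals. The genotypes were compared in R 4.3.3 with limma 3.58.1 on log2(signal + 16), with an intensity trend, over all probe sets with a mean log2 signal at or above the 40th percentile (a signal of about 102.7). P-values were adjusted by Benjamini-Hochberg over 13648 probe sets. An offset of 16 understates changes at low signal. The fit was tested on simulated data. Alternatives covered scaling, offset, filter, array weights, the replicate block and leaving out each array.

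Names come from the platform annotation (1 gene for 13513 probe sets), and symbols from the TAIR10.1 gene table, which 13436 matched. The members, gene lists and role groups were chosen with earlier results of these data known. Genes named are the 12 with the largest WT factor in each direction, up to 4 members per list, the 5 largest called differences in each direction and those at the rule's edges. Any other gene in the text was picked with its values known. The tables hold no gene descriptions, so the description words planned for the lists were not applied. Promoter motifs were not analysed here.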

Additional observations from a re-analysis of the deposited data

How the results depend on the processing

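The rule's counts moved with its limits, which by construction admit fewer or more probe sets. A lowest signal of 300 left 80 probe sets (68 with WT array 2 nearer), a WT factor of 3 left 19 (2 higher on WT array 1, 18 nearer WT array 2), a WT factor of 1.5 gave 985 (366 and 689) and a ced1 factor under 1.1 gave 68 (22 and 59). With equal medians over all probe sets 89 were higher on WT array 1, and 11 of the 135 changed their nearer array. Without the low-signal filter 29 of the 135 were higher in ced1. Leaving out each array in turn gave 29 to 84 members higher and 8 to 38 lower in ced1, and 1240 to 4475 of all probe sets higher and 1316 to 3372 lower; without a WT array the spread comes from the ced1 arrays alone, which the rule chose to lie close, and the lone array is assumed to vary like them. With equal medians over all probe sets, added after seeing the data, 2213 of all probe sets were higher and 3437 lower. No label says that replicate numbers pair arrays across genotypes (correlation of deviations 0.091 over 13648 probe sets), and the fit with a replicate block called 66 members higher and 21 lower. The 10 named differences kept their direction under every alternative run, which is no separate check, since they were picked as the largest called. AT5G52810 lost its call without ced1 array 1 (a log2 difference of -1.17).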
